A study of Homo sapiens with 4 samples.

Results

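The MSX, DLX and PRRX genes are homeobox genes, which encode DNA-binding transcription factors, and they are 10 of the 56595 gene symbols in a table of RNA-seq levels from human embryonic stem cells at day 2 of hematopoietic differentiation. The members were taken by symbol: MSX1 and MSX2, DLX1 to DLX6, and PRRX1 and PRRX2, and each symbol occurred in a single row. The cells were H1, an established human embryonic stem cell line, and every library came from cells grown for 2 days with activin A and BMP4, which drive pluripotent cells toward mesoderm. The DMSO group (n = 2) received the solvent and the IWP2 group (n = 2) received IWP2, an inhibitor of Porcupine, the enzyme that attaches the lipid a Wnt ligand needs to leave the cell. The labels give 40 ng/ml activin A and 50 ng/ml BMP4, the methods give these amounts the other way round, and neither gives the dose of IWP2. H1 is 1 line, and the labels do not say whether replicates were separate cultures, so the p-values measure only the spread between these libraries. Levels are FPKM, fragment counts scaled to transcript length and to the size of the library, so that levels can be compared between genes of different length.

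MSX1 and MSX2 descend from the fly gene muscle segment homeobox. Their products mostly repress transcription, and BMP signals switch on both genes in many embryonic tissues, among them neural crest, limb bud, tooth germ and amnion. The DLX genes are relatives of fly Distal-less and lie in the genome as linked pairs that are transcribed toward each other, with shared enhancers between the partners. They pattern the branchial arches, the limb ectoderm, the placenta and the forebrain. PRRX1 and PRRX2 are paired-related homeobox genes of embryonic connective tissue and limb mesenchyme.

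The MSX genes differed in their levels with IWP2. MSX1 was lower in both IWP2 libraries by a ratio of group means of 29.1, while MSX2, the most abundant member in all 4 libraries, was 68.6 ± 10.3 FPKM in DMSO and 62.7 ± 3.71 FPKM in IWP2 (mean ± SD, n = 2). Of the DLX genes, DLX6 rose, and its linked partner DLX5 was lower in both IWP2 libraries without passing the test. Among the 10 members, 9 reached the mean level of 0.5 FPKM required for testing, and 2 of these passed at an adjusted p below 0.05 in limma, 1 in each direction. MSX1, 1 of the 2, was proposed with its difference from MSX2 already known, so its call is not independent support. Across all 15957 genes tested, 13.3% passed, 7.39% lower and 5.86% higher in IWP2. The number of calls over all genes depended on every library, being 2115 with all 4 and 731, 450, 128 and 107 without DMSO replicate 1, DMSO replicate 2, IWP2 replicate 1 and IWP2 replicate 2. The groups did not overlap for 8 of the 9 tested members, 4 lower and 4 higher, and 58.6% of all genes tested had groups that did not overlap, 31.0% lower and 27.6% higher. Groups that do not overlap were therefore common in this design of 2 against 2. Among the 8, DLX1 and DLX3 reached the mean of 0.5 FPKM only through the group in which they were higher.

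The sequences before the start sites of MSX1, MSX2, DLX1, DLX2 and DLX6 are shown here to place each gene. MSX1 and MSX2 moved apart, DLX6 passed the test, and DLX1 and DLX2, a linked pair, did not. RefSeq (GRCh38.p14) gave promoter windows for 7 of the 10 members, and DLX3, DLX4 and DLX5 were not matched. Each line runs 5′ to 3′ on the strand of the gene, and positions count back from the RefSeq start, the base before it being -1. Bases that GENCODE 29 places in an exon of the same gene were left off, except for DLX1, whose whole window is exonic in GENCODE 29. For DLX1 only 30 bases are printed, chosen around its matches to the first motif named below. Its CCAAT matches at -106 to -102 and at -75 to -71 lie outside them. The windows of PRRX1 and PRRX2 are not printed. Capitals mark letters of 4 short motifs, read on both strands: CTTTGA, the core of the TCF/LEF sites through which Wnt signals act on genes, GGCGCC, a GC-rich element that BMP SMADs bind, TAATTA or TAATTG, the core that homeodomains bind, and CCAAT, bound by NF-Y. The motifs were chosen after the sequences had been seen.
MSX1 (chr4:4859415-4859664, plus strand): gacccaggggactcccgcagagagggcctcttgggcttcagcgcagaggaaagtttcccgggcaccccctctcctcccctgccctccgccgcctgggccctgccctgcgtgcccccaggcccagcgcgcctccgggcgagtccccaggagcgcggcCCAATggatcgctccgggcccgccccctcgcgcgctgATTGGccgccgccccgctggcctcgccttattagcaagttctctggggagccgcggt
MSX2 (chr5:174724332-174724532, plus strand): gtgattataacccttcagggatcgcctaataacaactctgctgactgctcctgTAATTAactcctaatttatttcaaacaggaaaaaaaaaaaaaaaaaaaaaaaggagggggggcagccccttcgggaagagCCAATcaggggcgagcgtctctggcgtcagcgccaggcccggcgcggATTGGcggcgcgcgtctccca
DLX1 (chr2:172085468-172085497, plus strand): ttcgctgagTCAAAGCTTTGAaccgagttt
DLX2 (chr2:172102901-172103150, minus strand): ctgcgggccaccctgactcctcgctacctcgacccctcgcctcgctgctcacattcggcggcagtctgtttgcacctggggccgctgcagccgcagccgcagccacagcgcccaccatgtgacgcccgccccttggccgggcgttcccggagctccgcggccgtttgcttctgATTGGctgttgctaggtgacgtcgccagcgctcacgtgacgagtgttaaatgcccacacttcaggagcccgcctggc
DLX6 (chr7:97005303-97005547, plus strand): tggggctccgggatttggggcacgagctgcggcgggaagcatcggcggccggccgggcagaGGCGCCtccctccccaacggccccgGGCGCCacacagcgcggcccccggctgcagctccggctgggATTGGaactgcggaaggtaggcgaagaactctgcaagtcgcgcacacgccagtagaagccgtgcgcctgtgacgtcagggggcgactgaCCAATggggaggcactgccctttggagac

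In the 250 bases before the start, CTTTGA was found in 1 of the 7 members, DLX1, and in 11.2% of the 35116 RefSeq promoters. DLX1 carried 2 matches, 1 on each strand, that abut at positions -30 to -19 and together form a single palindrome, so they mark 1 stretch of the window. Counted as 2 matches in the same way, 0.977% of all promoters held 2 or more. GGCGCC occurred in DLX6 alone of the 7, with 2 matches, and 16.4% of promoters held at least 1 and 3.08% held 2 or more. The homeodomain core was present in MSX2 alone, at positions -197 to -192, against 10.4% of promoters. The CCAAT box was found in 6 of the 7, PRRX2 being the one without it, against 32.0% of promoters. The MSX1 window was richer in G and C, at 74.0%, than the MSX2 window, at 55.6%. Each match describes letters in a short window, and absence from it describes only this window.

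MSX1 (ENSG00000163132.6), a protein-coding gene on the plus strand of chromosome 4 from 4859666 to 4863936 (GRCh38), stood at 36.3 and 29.6 FPKM in the DMSO libraries and at 1.04 and 1.23 FPKM in the IWP2 libraries. The lower of the DMSO values was far above the higher of the IWP2 values, and the replicates of each group were close. On the log2(FPKM + 1) scale MSX1 fell by 3.99 ± 0.147 (SE, 95% interval -4.36 to -3.61, adjusted p = 0.000428 in limma). That difference was the 35th lowest of the 15957 genes tested. MSX1 kept its direction in each of the 10 alternative analyses, with log2 differences from -4.74 to -3.84, all refits of the same libraries. The genes were proposed with a difference between MSX1 and MSX2 already known. The p-value and rank of MSX1 therefore describe these libraries and are not independent support.

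MSX2 (ENSG00000120149.8), on the plus strand of chromosome 5 from 174724533 to 174730893, was at 75.9 and 61.3 FPKM in DMSO and at 60.1 and 65.3 FPKM in IWP2. These groups overlapped, and MSX2 was the only tested member for which they did. Its log2 difference was -0.12 ± 0.126 (SE, 95% interval -0.44 to 0.20, adjusted p = 0.580 in limma), so a change larger than these bounds in either direction was outside the interval, and smaller changes could not be told from none. Leaving out the first DMSO library turned the sign, to a log2 difference of 0.029.

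Within a library the MSX genes can be set against each other. MSX2 was 2.09 and 2.07 times the level of MSX1 in the DMSO libraries and 58.0 and 53.0 times in the IWP2 libraries. The log2 ratio of MSX1 to MSX2 was -1.06 and -1.05 with DMSO and -5.86 and -5.73 with IWP2, and replicates lay much closer to each other than the groups did. No test is given for this contrast, because the genes were proposed with a difference between MSX1 and MSX2 already known. The sequences of the members were also compared with each other. In GENCODE 29 transcripts, the longest run of bases shared exactly by any of the 45 pairs of members was 28, between MSX1 and MSX2, and it lay in coding sequence of both, at chr4:4860073-4860100 and chr5:174724791-174724818. The next longest, of 26 bases, joined MSX2 and DLX2, and both runs are printed as the longest identical stretches.
MSX1 and MSX2: cctgcccttcagcgtggaggcgctcatg
MSX2 and DLX2: caggtcaaaatctggttccagaaccg

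The second of these runs encodes part of the recognition helix, the segment of a homeodomain that reads DNA. The median over the 45 pairs was 14 bases. Stretches with mismatches were not measured, the read length is not given in the sources used here, and whether reads of one member were counted for another was not tested.

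**Figure D1:**
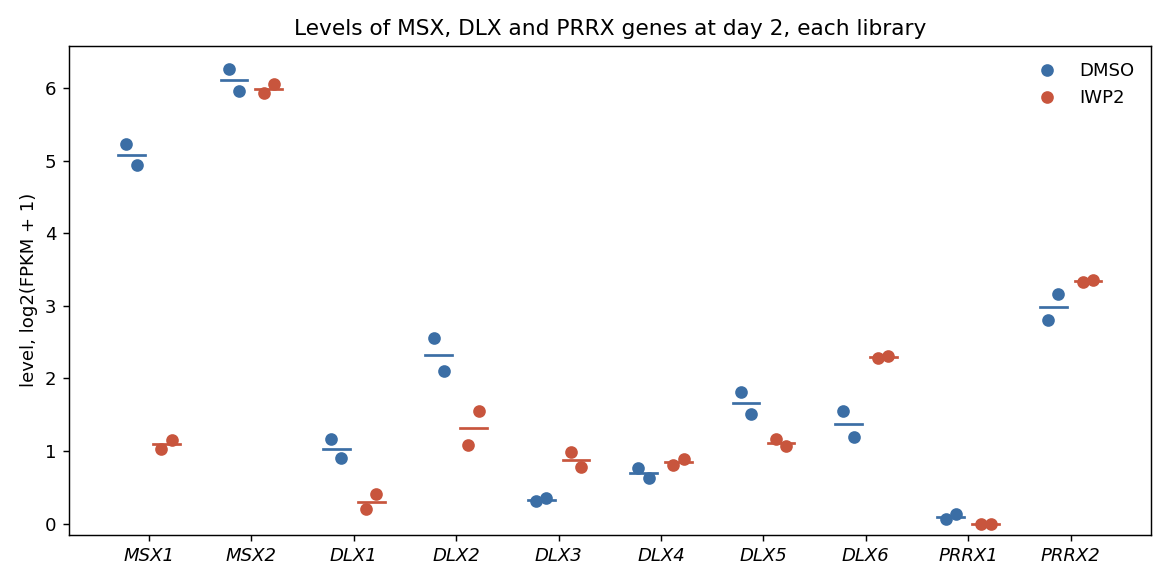
Level of each member in each library, on a vertical axis of log2(FPKM + 1), with DMSO libraries in blue, IWP2 libraries in red and bars at the group means. MSX1 sits near 5 with DMSO and near 1 with IWP2, MSX2 stays near 6 in all 4 libraries, and the DLX genes are low throughout.

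DLX genes were expressed at low levels, from 0.150 to 4.87 FPKM over all 6 genes and 4 libraries. Summed over DLX1 to DLX6, the level was 11.5 and 8.11 FPKM in DMSO and 8.10 and 8.88 FPKM in IWP2, and these groups overlapped. MSX1 and MSX2 together supplied 86.5% and 84.9% of the summed FPKM of the 10 members in DMSO and 78.1% and 78.6% in IWP2.

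DLX1 and DLX2, which lie 9761 bases apart on chromosome 2 and act in branchial arches and in inhibitory neurons of the forebrain, were both lower in IWP2. DLX2 (172099439 to 172102900, minus strand) was at 4.87 and 3.28 FPKM in DMSO and at 1.11 and 1.93 FPKM in IWP2. Its log2 difference of -1.01 ± 0.249 (SE, 95% interval -1.65 to -0.37) missed the threshold, with an adjusted p of 0.0623 in limma, and stayed above 0.05 in all 10 alternatives. DLX1 (172084740 to 172089677, plus strand) was at 1.24 and 0.872 FPKM in DMSO and at 0.150 and 0.327 FPKM in IWP2. The DLX1 groups did not overlap, and the ratio of group means was 4.43, but the log2 difference of -0.73 ± 0.204 (SE) gave an adjusted p of 0.0840 in limma. With a pseudocount of 0.1 in place of 1, which compresses low levels less, the log2 difference of DLX1 was -1.81 and its adjusted p 0.0997.

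DLX5 and DLX6 lie 9352 bases apart on chromosome 7, and both are needed for craniofacial and limb development. DLX6 (97005548 to 97011039, plus strand) was at 1.94 and 1.28 FPKM in DMSO and at 3.86 and 3.94 FPKM in IWP2. Both IWP2 values lay above both DMSO values, and DLX6 rose by a log2 difference of 0.92 ± 0.181 (SE, 95% interval 0.46 to 1.38, adjusted p = 0.0345 in limma). The call rested on all 4 libraries together: leaving out DMSO replicate 1, DMSO replicate 2, IWP2 replicate 1 or IWP2 replicate 2 gave adjusted p-values of 0.0654, 0.113, 0.208 and 0.217, and testing every gene with any signal gave 0.135. DLX5 (97020392 to 97025097, minus strand) was at 2.51 and 1.86 FPKM in DMSO and at 1.25 and 1.10 FPKM in IWP2, the opposite order. Its log2 difference of -0.55 ± 0.181 (SE, 95% interval -1.01 to -0.08) did not pass, with an adjusted p of 0.123 in limma. Within a library, DLX5 was 1.30 and 1.45 times DLX6 in DMSO, whereas in IWP2 DLX6 was 3.09 and 3.60 times DLX5, so that the order of the partners was reversed. This change of order was noticed in the data and was not tested.

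DLX2-AS1 and PRRX2-AS1 were listed at 0 in all 4 libraries. DLX6-AS1, a long noncoding RNA read from the strand opposite DLX6 across the same locus, was at 0.251 and 0.252 FPKM in DMSO and at 0.561 and 0.591 FPKM in IWP2. Its mean of 0.414 FPKM was below the level required for testing. The ratio of DLX6-AS1 to DLX6 was 0.129 and 0.197 in DMSO and 0.146 and 0.150 in IWP2, so the groups overlapped. Annotated exons of DLX6-AS1 shared 0 of the 3449 exonic bases of DLX6 in GENCODE 29. The strand setting of the counting is not stated. Without strand, antisense reads from outside these annotated exons that fell in exons of DLX6 could not be told from those of DLX6.

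DLX3 and DLX4, separated by 15045 bases on chromosome 17, are expressed in placental trophoblast and in surface ectoderm. DLX3 (49990005 to 49995224, minus strand) was at 0.242 and 0.274 FPKM in DMSO and at 0.975 and 0.724 FPKM in IWP2, and all 4 values were under 1 FPKM. The log2 difference of 0.55 ± 0.188 (SE) gave an adjusted p of 0.130 in limma. DLX4 (49968970 to 49974959, plus strand) was at 0.709 and 0.549 FPKM in DMSO and at 0.759 and 0.861 FPKM in IWP2, with a log2 difference of 0.15 ± 0.179 (SE, 95% interval -0.30 to 0.61, adjusted p = 0.629 in limma).

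**Figure D2:**
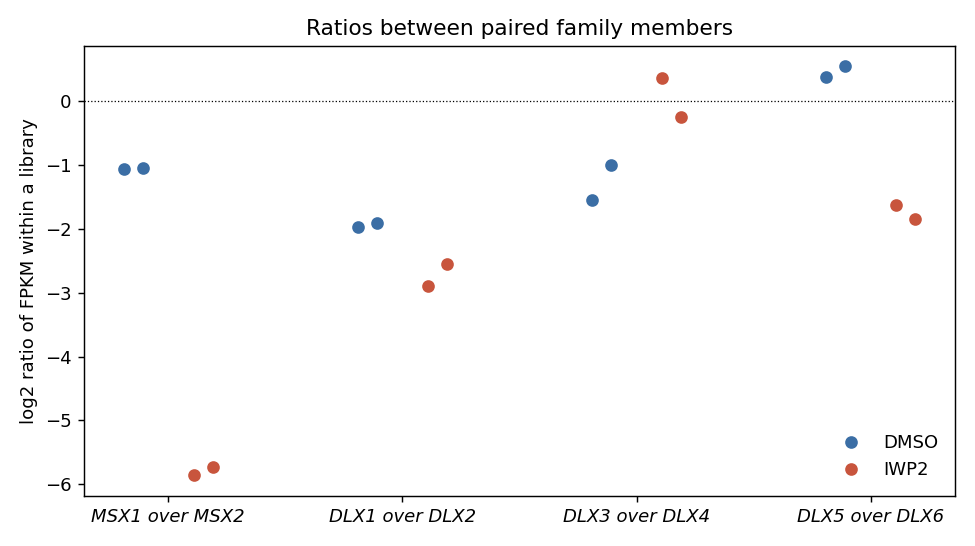
The log2 ratio of FPKM between partner genes within each library, for 4 gene pairs, with DMSO in blue and IWP2 in red, where 0 means equal levels. MSX1 over MSX2 drops from about -1 to below -5, and DLX5 over DLX6 goes from above 0 to below -1.

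PRRX2 (chromosome 9, 129665641 to 129722674, plus strand) was the third most abundant member in DMSO, at 6.001 and 7.95 FPKM, and the second in IWP2, at 9.06 and 9.26 FPKM. The groups did not overlap, but the log2 difference of 0.36 ± 0.154 (SE, 95% interval -0.03 to 0.75, adjusted p = 0.206 in limma) did not pass. PRRX1 (chromosome 1, 170662728 to 170739419, plus strand) was at 0.0470 and 0.0956 FPKM in DMSO and was listed at 0 in both IWP2 libraries. It was the lowest member in every library and was not tested, and its absence at this depth cannot be told from low expression.

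The order of levels shifted mainly through MSX1 and DLX6. In both DMSO libraries the order was MSX2, MSX1, PRRX2, DLX2, DLX5, DLX6, DLX1, DLX4, DLX3 and PRRX1, and the ranges of the neighbours DLX5 and DLX6 touched the same values, from 1.86 to 1.94 FPKM. In IWP2, MSX2, PRRX2 and DLX6 came first in both libraries. DLX2, DLX5 and MSX1 then overlapped between 1.04 and 1.93 FPKM, and DLX3 and DLX4 overlapped between 0.724 and 0.975 FPKM. DLX1 and PRRX1 were the lowest.

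**Figure D3:**
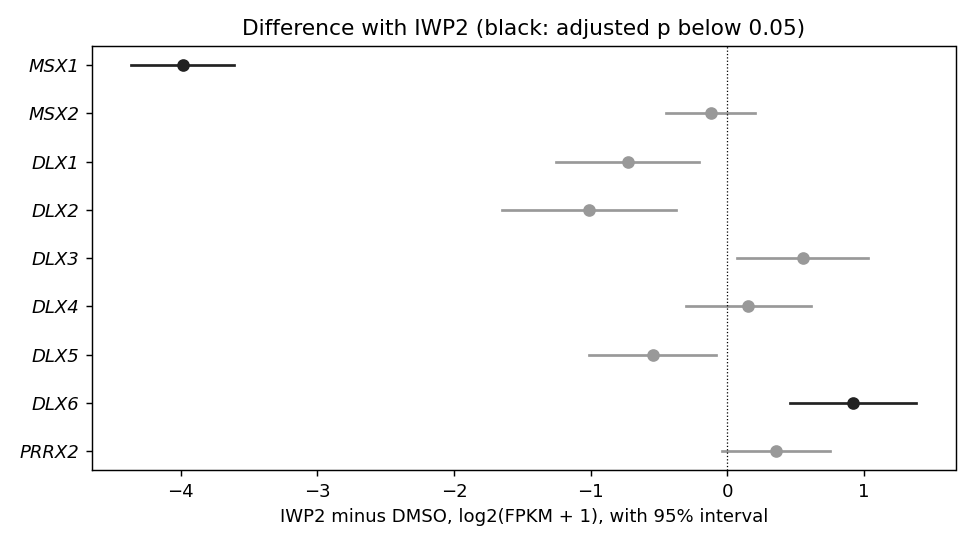
Difference between IWP2 and DMSO for the 9 tested members on the log2(FPKM + 1) scale, with points at the limma estimate and bars for its 95% interval. MSX1 at -3.99 and DLX6 at 0.92 are drawn in black as the members with an adjusted p below 0.05, and the interval of MSX2 spans 0.

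The protein-coding genes nearest to each member in the genome were examined next. Of 14 distinct neighbours, 9 were tested and 1 passed, near the share of 13.3% over all genes tested. It was ITGA3, an integrin gene beside DLX3, which rose from 3.92 and 2.51 FPKM to 6.93 and 6.72 FPKM (log2 difference 0.91 ± 0.196 SE, adjusted p = 0.0432 in limma). CYTL1, beside MSX1, stood at 3.33 and 2.62 FPKM in DMSO and at 2.39 and 2.62 FPKM in IWP2, with overlapping groups. METAP1D, beside DLX1, was at 6.30 and 3.80 FPKM in DMSO and at 3.31 and 2.95 FPKM in IWP2 (adjusted p = 0.219 in limma). ITGA6, on the other side of DLX1 and DLX2, went the opposite way. It was at 9.76 and 6.50 FPKM in DMSO and at 13.1 and 10.1 FPKM in IWP2 (adjusted p = 0.240 in limma).

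Genes with profiles most like MSX1 were sought by Euclidean distance between centred log2(FPKM + 1) values over the 4 libraries. The 3 nearest were CYP26A1, a retinoic acid-degrading enzyme, at a distance of 0.315, OTX2, a head organiser homeobox gene, at 0.331, and CRHBP at 0.346. OTX2, for example, was at 55.8 and 61.2 FPKM in DMSO and at 2.19 and 2.95 FPKM in IWP2. Those nearest to MSX2 were WDR45, YIPF3 and GSTP1, at distances of 0.0214, 0.0228 and 0.0256.

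Homeobox genes related to the members gave mixed calls. Among 31 genes of the NKL class, to which MSX and DLX belong, 8 were tested, of which 4 fell and 1 rose, with a median log2 difference of -0.86 against -0.01 over all genes tested. HLX was at 8.95 and 13.5 FPKM in DMSO and at 0.907 and 0.760 FPKM in IWP2, and the cardiac factor NKX2-5 was at 11.1 and 9.04 FPKM against 0.616 and 1.502 FPKM. HMX1 rose, from 5.46 and 4.38 FPKM to 14.8 and 19.1 FPKM. NKX1-2 did not pass (adjusted p = 0.139 in limma). Of 20 genes of the PRD class, to which PRRX1 and PRRX2 belong, 9 were tested, of which 4 fell and 5 did not pass, and the median was -0.72. MIXL1, OTX2 and GSC, genes of the primitive streak and head organiser, were among those that fell, with log2 differences from -4.36 to -3.60.

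Wnt and BMP signals are both known to act on MSX genes, so response genes of each pathway were examined. All 10 Wnt response genes on the list were tested, 7 fell and 3 did not pass, with a median log2 difference of -1.11. The Wnt-induced transcription factor SP5 fell from 53.2 and 47.0 FPKM to 0.379 and 0.363 FPKM. The feedback inhibitors NKD1 and DKK1 fell by 4.12 and 4.24 on the log2 scale, and TCF7 fell by 0.99. Of 12 BMP and SMAD response genes, 4 rose, 2 fell and 6 did not pass, and the median was 0.24. ID1, the classical BMP target, rose from 789 and 644 FPKM to 1772 and 2137 FPKM, ID4 rose by a log2 difference of 1.24, ID3 by 1.01 and BAMBI by 0.46, whereas ID2 at 0.44 did not pass (adjusted p = 0.0736 in limma). BMPER, which encodes a BMP-binding regulator, fell from 59.2 and 74.2 FPKM to 2.56 and 1.65 FPKM, the largest difference on the list (-4.45), and the inhibitory SMAD gene SMAD6 fell by 0.81 on the log2 scale. MSX2, also a known BMP target, had the difference of -0.12 given above. Among 10 interacting or partner proteins of MSX and DLX factors, 8 were tested, TLE1 rose by 0.59, TLE3 fell by 0.65 on the log2 scale, and MAGED1 and HDAC1 were among the 6 that did not pass.

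**Figure D4:**
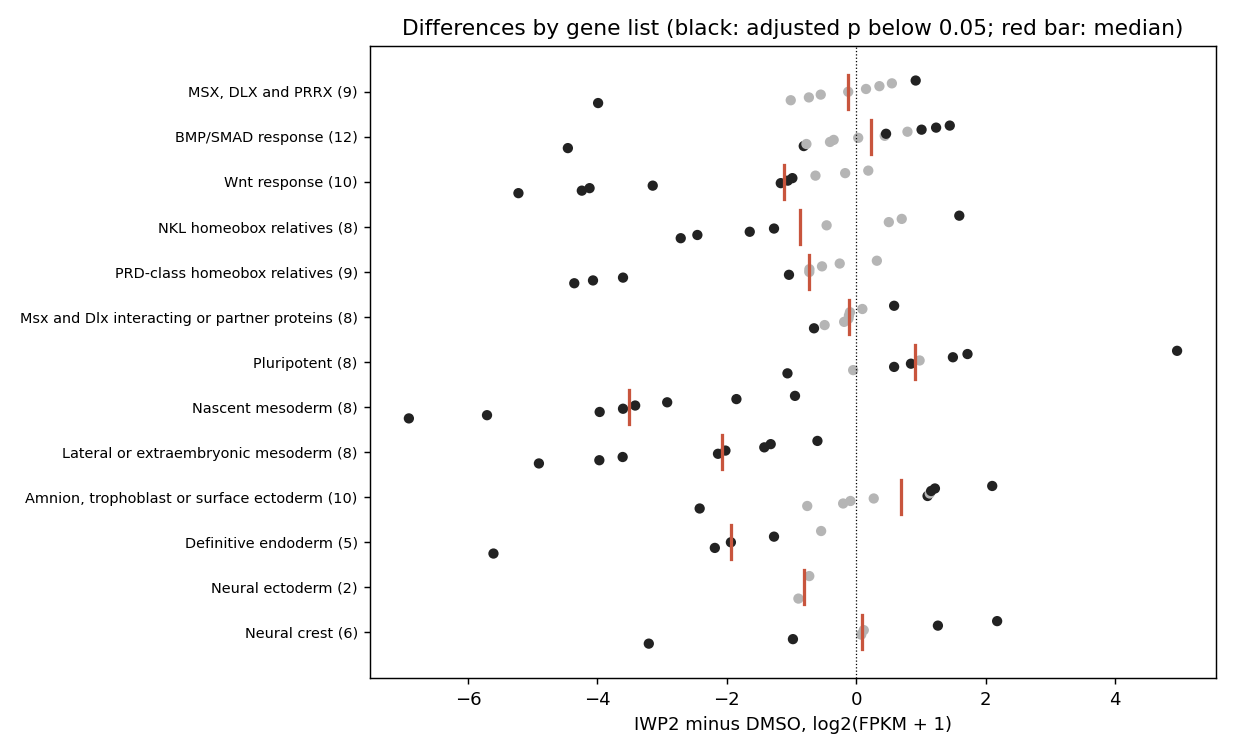
Difference between IWP2 and DMSO on the log2(FPKM + 1) scale for every tested gene of each list (number in brackets), black where the adjusted p was below 0.05, with a red bar at the list's median. The MSX, DLX and PRRX genes spread around 0 with MSX1 alone at the far left, next to Wnt response genes with a median of -1.11 and nascent mesoderm genes with a median of -3.51.

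Markers of cell types that day 2 cultures could hold were checked, because several lists moved with the treatment. In bulk RNA, fewer cells of a type and less RNA per cell cannot be told apart. All 8 tested nascent mesoderm markers fell with IWP2, as did all 8 of lateral or extraembryonic mesoderm, and the summed level of the nascent mesoderm list went from 898 to 1118 FPKM in DMSO to 49.8 to 53.6 FPKM in IWP2. The receptor gene APLNR, the most abundant of them, fell from 380 and 512 FPKM to 2.97 and 2.39 FPKM. Of 8 pluripotency markers 5 rose and 1 fell, with sums of 1191 to 1371 FPKM against 2497 to 2502 FPKM. POU5F1 rose from 751 and 571 FPKM to 1854 and 1844 FPKM and supplied most of the IWP2 sums. DPPA4 rose from 82.0 and 80.2 FPKM to 145 and 148 FPKM, and SOX2 from 0.193 and 0.174 FPKM to 35.6 and 36.1 FPKM. TDGF1 fell from 203 and 221 FPKM to 103 and 98.6 FPKM. LIN28A, at 258 and 248 FPKM in DMSO and 239 and 252 FPKM in IWP2, was among those that did not pass. Of 5 tested endoderm markers 4 fell (sums of 1799 to 2173 FPKM against 123 to 134 FPKM). Most of the DMSO sums came from CER1, at 1612 and 2048 FPKM in DMSO and 38.6 and 34.2 FPKM in IWP2. SOX17, at 155 and 104 FPKM in DMSO and 79.7 and 94.9 FPKM in IWP2, did not pass (adjusted p = 0.166 in limma) and supplied most of the IWP2 sums. Amnion, trophoblast or surface ectoderm markers, tissues in which MSX2 and DLX genes are active, summed to 454 to 543 FPKM in DMSO and to 595 to 637 FPKM in IWP2, and of 10 tested 4 rose and 1 fell. Those that rose were the keratin gene KRT7, from 0.833 and 0.864 FPKM to 5.85 and 8.22 FPKM, GABRP, from 0.467 and 0.455 FPKM to 2.13 and 2.40 FPKM, WNT6, by a log2 difference of 1.10, and the transcription factor gene TFAP2A, by 1.22. CDX2 fell by 2.42 on the log2 scale, and VTCN1 and CGA, at or below 0.189 FPKM throughout, were among the 4 not tested. KRT18 supplied most of each sum of this list, at 423 and 345 FPKM in DMSO and 444 and 480 FPKM in IWP2, and did not pass. Nor did TFAP2C, which was higher in both IWP2 libraries, or GATA3 and GATA2, which were lower in both. Neural crest markers gave 2 higher and 2 lower of 6 tested, and sums of 50.4 to 60.8 FPKM against 29.4 to 30.1 FPKM. ETS1 and SNAI2 were the 2 that fell, and they supplied most of the DMSO sums. The 2 that rose were NGFR, from 1.48 and 1.39 FPKM to 4.67 and 5.02 FPKM, and FOXD3, from 0.0238 and 0.0805 FPKM to 3.66 and 3.87 FPKM. Of 6 neural ectoderm markers 2 were tested, and neither passed. Their list summed to 1.84 to 2.59 FPKM in DMSO and to 0.349 to 1.09 FPKM in IWP2, with HES5 at 0 in all 4 libraries. The part of these shifts in the levels of MSX1, DLX6 or any other member was not tested.

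Depth differed little between libraries, whereas the share of a few abundant RNAs differed more. Steps between low FPKM values put the depth of the other 3 libraries at 0.890 to 1.10 times that of DMSO replicate 1, and the absolute depth is not given in the sources used here. Between 13831 and 13926 rows reached 1 FPKM. The mitochondrial transcript MT-ATP8 took 5.10% and 4.08% of summed FPKM in the libraries numbered 1 and 1.51% and 1.79% in those numbered 2, and RN7SL1 and RN7SL2 together took 3.85% to 6.25%. Rescaling the libraries by median ratios left the calls for all 9 tested members as they were.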

How the data were processed

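RNA from H1 cells at day 2 was sequenced as 2 DMSO and 2 IWP2 libraries (TruSeq RNA kit). The authors deposited FPKM per Ensembl gene. The submitters' processing notes name BWA, Bowtie, RSEM and hg19, but 97.3% of the matched rows carry GENCODE 29 positions, which are GRCh38, after adding 1 to each start. Tool versions and strand setting are not given in the sources used here. Columns were mapped by their names, with a minus sign before IWP2 read as DMSO. For repeated symbols the row with the highest mean was kept. Genes with a mean of at least 0.5 FPKM over the 4 libraries were tested on log2(FPKM + 1) with limma 3.58.1 (R 4.3.3, intensity trend, two-sided), with Benjamini-Hochberg adjustment across all genes kept, so log2 differences understate changes of low genes. The procedure was run on simulated data with independent normal noise, scaled to each gene's spread in these libraries. Such data hold no counting noise and no shared culture effects, so they cannot show how the calls fare under either. From each list at most the 4 most abundant genes were named, together with neighbouring and antisense genes and the 3 genes nearest in profile to MSX1 and MSX2. VTCN1, CGA, HES5, KRT7, GABRP, WNT6, CDX2, GATA2, BMPER, SMAD6, ID4 and SOX2 were named after their values were seen. The members and lists were chosen with earlier results of these data known. Alternatives are described below. Without counts, no counting error is given.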

Additional observations from a re-analysis of the deposited data

How the results depend on the processing

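MSX1 kept its direction and its call in all 10 alternatives, with log2 differences from -4.74 to -3.84. DLX6 kept its direction in all 10 (0.74 to 1.25) and its call in 5. No other tested member passed in any alternative, and MSX2, which ranged from -0.27 to 0.029 when libraries were left out in turn, turned positive without DMSO replicate 1. With no filter on low values, 384 genes passed (266 lower and 118 higher) in place of 2115 (1180 lower and 935 higher), and 1 member in place of 2. Leaving out 1 library at a time gave 107 to 731 genes (88 to 431 lower, 19 to 300 higher) and 1 member in each case. These fits have 1 residual degree of freedom before pooling, and the lone sample of a group is assumed to vary like the other group. The labels do not say that same-numbered libraries were made together. Their deviations from the group means correlated at 0.138 over genes, with only 2 pairs, and the MT-ATP8 share also followed the number. With the replicate block, 1922 genes and the same 2 members passed. The other alternatives (pseudocount 0.1, mean of at least 1 FPKM, median-of-ratios scaling, no intensity trend) left the counts within 1.5 times. With 2 libraries a group and unknown depth, low members such as DLX1, DLX3, DLX4 and PRRX1 have imprecise differences.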
